A study of Mus musculus with 4 samples.

Results

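H1foo-only boundary peaks are the places near the ends of genes where the oocyte linker histone H1foo gave a ChIP-seq peak and AE4, an antibody used for somatic H1, gave none. A member is a peak of the H1foo list on chromosomes 1 to 19 that shares no base with an AE4 peak and whose centre lies within 1 kb of either end of a protein-coding gene span. The rule found 7485 such peaks among 97617 H1foo peaks on these chromosomes (7.67%), or among 145318 peaks in both lists together. The chromatin came from embryonic stem cells of the mouse strain 129S4/SvJae overexpressing an H1foo-GFP fusion, with 2 libraries from an in-house rabbit polyclonal antibody to H1foo and 2 from the mouse monoclonal antibody AE4. All 4 libraries thus came from cells carrying the transgene. The sources used here name neither its promoter, nor the number of clones, nor separate cultures for the replicate libraries. The libraries are grouped by their titles and antibody labels. The extraction text of all 4 names the H1foo antibody, also for those whose label is AE4.

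Each antibody has 1 deposited peak list without values for the single libraries. Replicate error and depth are therefore unknown and no test was made. Every value below describes these lists. Wilson 95% intervals, where given, cover counting error only and treat peaks as independent, which neighbouring peaks are not. The choice of members used the overlap with AE4 and the distance to a gene, so neither is a finding by itself. A peak missing from the shorter AE4 list is not a measured absence of somatic H1. The sources used here do not say if the AE4 antibody recognises H1foo too. A peak list carries no expression values, so the labelled cell type could not be checked against its markers.

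Linker histones bind the nucleosome where DNA enters and leaves it, and favour compact chromatin. H1foo, encoded by H1f8, is the variant of the growing oocyte and early embryo, in which it largely takes the place of somatic H1. At active genes the start is usually an accessible stretch with few or displaced nucleosomes, often within a CpG island, a region rich in unmethylated CG dinucleotides, while the 3' end carries the signals for cleavage and polyadenylation of the transcript.

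Promoter sequences are shown first because gene starts covered by a member and gene starts covered by an H1foo peak overlapping AE4 differed in CpG content around the start. Only promoter sequence was read, not that of members elsewhere. The lines below give the 150 bases just before the start of the gene, 5' to 3' on the gene's strand, with each CG dinucleotide (CpG) in capitals. They are RefSeq sequences on build GRCm38.p6, whose chromosomes have the coordinates of mm10. The genes are those with the highest-scoring members over the start base of a gene. Only starts at the outer end of the gene span, with no other annotated gene over the shown bases, were used, which left 506 starts under a member; this restriction was set after the data were seen.
Mlxipl, chr5:135089740-135089889, plus strand: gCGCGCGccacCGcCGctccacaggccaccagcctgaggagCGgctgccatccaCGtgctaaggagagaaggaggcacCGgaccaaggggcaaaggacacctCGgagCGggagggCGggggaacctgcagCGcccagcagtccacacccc
Nudt8, chr19:4000430-4000579, plus strand: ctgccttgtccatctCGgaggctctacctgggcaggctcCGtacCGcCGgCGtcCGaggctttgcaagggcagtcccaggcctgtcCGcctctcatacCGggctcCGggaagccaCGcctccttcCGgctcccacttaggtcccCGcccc
Gm40011, chr2:173082630-173082779, plus strand: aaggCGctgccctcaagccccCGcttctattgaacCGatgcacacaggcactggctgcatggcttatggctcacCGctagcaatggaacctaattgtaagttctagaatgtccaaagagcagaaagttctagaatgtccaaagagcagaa
Tekt2, chr4:126325689-126325838, minus strand: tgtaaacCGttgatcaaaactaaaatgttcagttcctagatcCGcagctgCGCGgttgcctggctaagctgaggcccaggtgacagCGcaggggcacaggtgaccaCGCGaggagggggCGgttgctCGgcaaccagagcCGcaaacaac
Gm13285, chr4:88800170-88800319, plus strand: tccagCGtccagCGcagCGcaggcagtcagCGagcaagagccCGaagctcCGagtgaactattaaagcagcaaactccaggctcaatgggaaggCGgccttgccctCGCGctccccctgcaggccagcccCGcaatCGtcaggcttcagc

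The Mlxipl stretch held 12 CG dinucleotides, that of Nudt8 12, Gm13285 11, Tekt2 10 and Gm40011 4. All 150 bases lay under the peak for these genes except Tekt2, where 38 did. Mlxipl encodes ChREBP, a transcription factor that responds to carbohydrate, Nudt8 a nudix hydrolase, and Tekt2 a tektin of cilia and flagella. The peaks over these starts had scores of 429.5, 391.4, 379.2, 348.4 and 304.4 for Mlxipl, Nudt8, Gm40011, Tekt2 and Gm13285. The score is the peak caller's own value; its scale is not named in the file, and its lowest value was 50.

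The next stretches come from genes of the lists described further on, and were picked as examples without a rule. Stretches not shown varied widely in CG dinucleotides, with 2 for Olfr282, 4 for Kcnn3 and for Olfr71, and 14 for Zfp36. Fgf4 encodes a growth factor of pluripotent cells, Ccnd3 cyclin D3, and Ooep a protein of the maternal complex of oocytes and embryos.
Fgf4, chr7:144861236-144861385, plus strand: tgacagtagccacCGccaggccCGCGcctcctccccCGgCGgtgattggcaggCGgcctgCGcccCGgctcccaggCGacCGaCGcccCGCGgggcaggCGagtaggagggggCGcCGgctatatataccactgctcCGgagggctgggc
Ccnd3, chr17:47504901-47505050, plus strand: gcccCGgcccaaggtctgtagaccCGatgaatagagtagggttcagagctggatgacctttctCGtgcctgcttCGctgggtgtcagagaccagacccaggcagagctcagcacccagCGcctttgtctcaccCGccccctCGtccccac
Ooep, chr9:78378589-78378738, minus strand: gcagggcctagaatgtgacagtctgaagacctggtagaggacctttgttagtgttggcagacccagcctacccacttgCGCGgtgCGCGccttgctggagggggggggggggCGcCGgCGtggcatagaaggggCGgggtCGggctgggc

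The Fgf4 stretch held 17 CG dinucleotides, with the peak centred 462 bp upstream of the start and only its edge over the start base. The Ccnd3 stretch held 7 and its peak was centred 26.5 bp downstream of the start. The Ooep stretch held 9, with 21 of its 150 bases under a peak of 597 bp, while the other two stretches lay wholly under their peaks.

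For comparison, these are the stretches before the starts covered by the highest-scoring H1foo peaks that overlapped an AE4 peak. The 157 starts met the same restriction, but these peaks could be centred at any distance from a gene end. Those of Gm51573 and Mc1r were centred 1128.5 and 1076 bp downstream of the start. Duxf3 is a multicopy gene of the 2-cell stage embryo, where read placement is uncertain. Gm51573 is a predicted gene, and Mc1r encodes a melanocortin receptor.
Duxf3, chr10:58233090-58233239, minus strand: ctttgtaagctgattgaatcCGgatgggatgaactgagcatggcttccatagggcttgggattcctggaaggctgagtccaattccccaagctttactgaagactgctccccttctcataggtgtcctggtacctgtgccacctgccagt
Gm51573, chr8:55372343-55372492, plus strand: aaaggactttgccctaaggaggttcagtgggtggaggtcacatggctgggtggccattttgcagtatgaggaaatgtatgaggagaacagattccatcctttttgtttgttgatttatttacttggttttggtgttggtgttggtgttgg
Mc1r, chr8:123406932-123407081, plus strand: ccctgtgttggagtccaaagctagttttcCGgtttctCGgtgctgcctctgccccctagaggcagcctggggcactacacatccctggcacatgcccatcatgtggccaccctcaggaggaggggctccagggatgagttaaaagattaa

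The Duxf3 stretch held 1 CG dinucleotide, that of Gm51573 held 0 and that of Mc1r held 2. The Gm51573 stretch had only 11 of its 150 bases under the peak, and the other two lay wholly under theirs. These few lines are examples, and the counts over all promoters follow below.

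Members were of moderate width and score. Their median width was 578 bp (quartiles 455 and 768 bp, range 202 to 2743 bp) and their median score 73.5 (quartiles 59.0 and 100.4, highest 492.4). H1foo boundary peaks that overlapped AE4, 2002 in number, had a median width of 814 bp and a median score of 116.1. H1foo-only peaks deeper inside genes (42364) had 531 bp and 69.3, and those outside genes (24254) had 510 bp and 66.2. A wide peak has more room to touch an AE4 peak, so the rule itself favours narrow members. Of all H1foo boundary peaks, 78.9% overlapped no AE4 peak, against 73.6% of H1foo peaks deeper inside genes and 79.4% of those outside genes. With all H1foo peaks divided by score into 10 equal classes, the share among boundary peaks was 91.9% in the lowest class and 46.2% in the highest. On the rule's distance limit, the members farthest from a gene end lay at Kcnj8, Gm39002 and Btbd16, each 1000 bp away, with scores of 54.4, 88.2 and 73.9. The closest H1foo-only peaks left out lay at Ccdc65, Zfp532 and Kyat3, each 1000.5 bp away, with scores of 70.6, 97.5 and 63.6.

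Which end of the gene a peak lies at was not part of the rule, and here the members and the overlapping peaks differed. AE4 overlap was part of it and is all that separates these 2 sets. Their split between starts and ends therefore depends by construction on where AE4 peaks lie. The strand, and so the start, was listed for 16457 of 20665 genes, and for 5951 members through their nearest gene end. Of these members, 3066 lay nearest to a start and 2885 nearest to an end, so 51.5% were at starts (50.2 to 52.8%). Of H1foo boundary peaks that overlapped AE4, 483 of 1580 were at starts, or 30.6% (28.3 to 32.9%). AE4 peaks at boundaries that overlapped no H1foo peak, a set from the other list, had 212 of 732 at starts, or 29.0% (25.8 to 32.4%). Peaks with AE4 signal were thus mostly at the 3' end, with or without H1foo, and H1foo-only peaks were split nearly evenly.

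The difference was present at every width and score examined. Among boundary peaks under 500 bp, 50.3% of members and 29.4% of overlapping peaks were at starts. Among those of 1000 bp and over, the shares were 48.9% and 32.4%. For scores from 50 to 75 they were 53.9% and 31.4%, and for scores of 200 and over 44.6% (37.7 to 51.8%) and 30.9% (26.3 to 36.0%). Of these bands, the gap was smallest in the last, which held 186 members and 346 overlapping peaks.

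**Figure D1:**
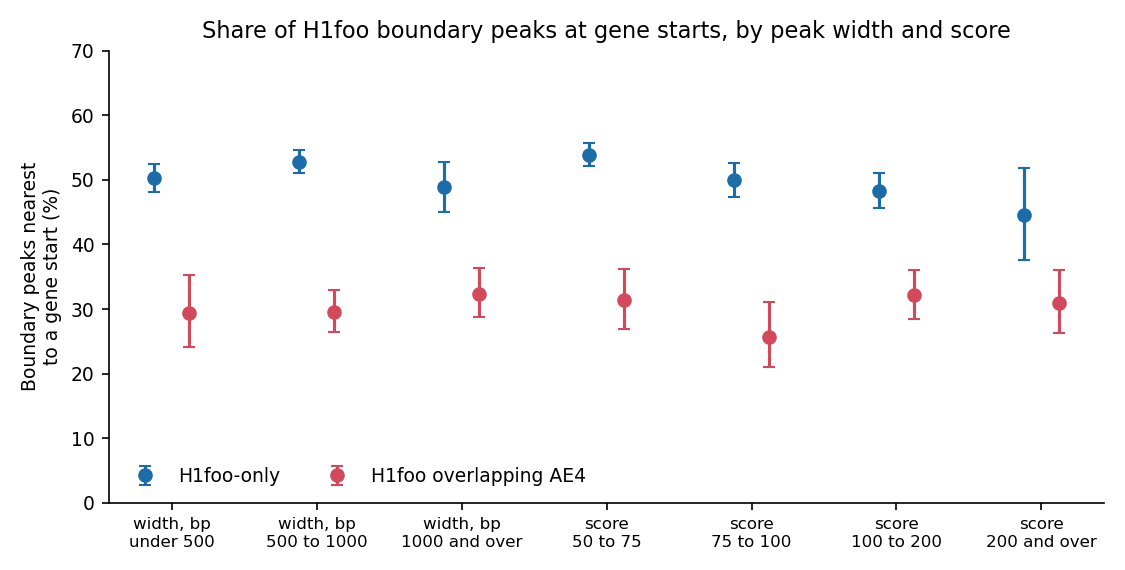
Share of H1foo boundary peaks whose nearest gene end is a start, in percent, by band of peak width (bp) and of peak score. Points are shares and bars Wilson 95% intervals, for H1foo-only peaks (blue) and H1foo peaks that overlap AE4 (red). The blue points lie between 44.6% and 53.9% and the red points between 25.7% and 32.4%, with no band in which they change order.

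Read the other way, 86.4% of H1foo boundary peaks nearest to a start overlapped no AE4 peak (85.2 to 87.5%, 3066 of 3549), and 72.5% of those nearest to an end (71.0 to 73.8%, 2885 of 3982). The share was higher at starts on 18 of the 18 chromosomes with listed strands. It ran from 75 to 94.7% at starts and from 49.4 to 86.4% at ends. Chromosome 8, which had the most members per gene, had the lowest values at both, 75% and 49.4%. The order is a description, since chromosomes of the same lists are not replicates. It too depends on where AE4 peaks lie. The difference between starts and ends over all chromosomes was 13.9 points, and it was 4.70 points when only AE4 peaks with a score of at least 100 counted as overlap.

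**Figure D2:**
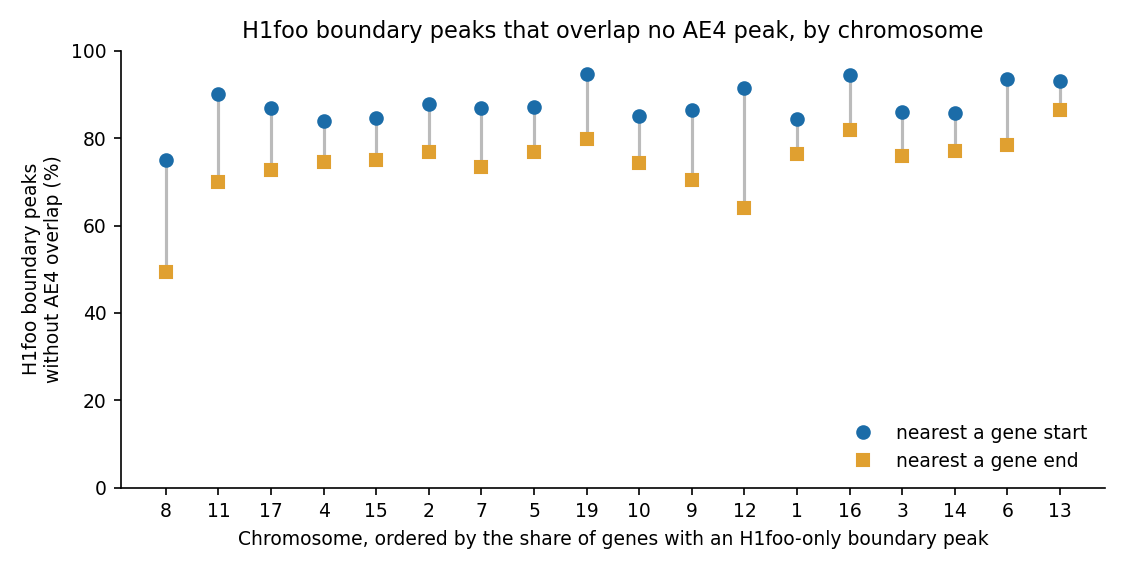
Percent of H1foo boundary peaks that overlap no AE4 peak, for peaks nearest a gene start (blue circles) and nearest a gene end (orange squares), by chromosome. Chromosomes run from the highest to the lowest share of genes with an H1foo-only boundary peak, 46.3% on chromosome 8 to 16.2% on chromosome 13. The circle lies above the square on each of the 18 chromosomes.

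The position relative to the boundary was graded. In a wider count over all H1foo-only peaks, the centres per 1000 genes in bins of 200 bp were 14.2 at 3000 bp upstream of starts and 29.2 at 200 bp downstream of them. At the start itself, in the bin from 100 bp before to 100 bp after, there were 17.99, fewer than the 21.4 at 400 bp upstream and the 29.2 just downstream. H1foo peaks that overlapped AE4 fell from 6.26 at 3000 bp upstream to 1.58 at 600 bp upstream. From there they rose, as H1foo-only peaks did, with 2.73 at the start itself and 5.17 at 200 bp downstream. All AE4 peaks had 10.4 at 3000 bp upstream, 3.10 at 600 bp upstream and 6.68 at 200 bp downstream. From 3000 to 800 bp upstream, H1foo-only peaks stayed between 13.2 and 15.9, and they had 17.3 at 600 bp. Both other classes thinned out from 3000 to 600 bp upstream. An H1foo peak counts as H1foo-only where no AE4 peak meets it, so fewer AE4 peaks move H1foo peaks into this class by construction.

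At the 3' end all 3 classes had a narrow gap. H1foo-only peaks had 30.02 centres per 1000 genes at 400 bp before the end, 9.18 at the end itself and 21.0 at 400 bp beyond it. AE4 peaks had 15.1, 3.89 and 11.4 at the same positions, and overlapping H1foo peaks 9.66, 3.40 and 6.81. The gap at the end was therefore common to both antibodies' lists. Base composition at gene ends was not measured here, and its part in the gap was not tested.

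**Figure D3:**
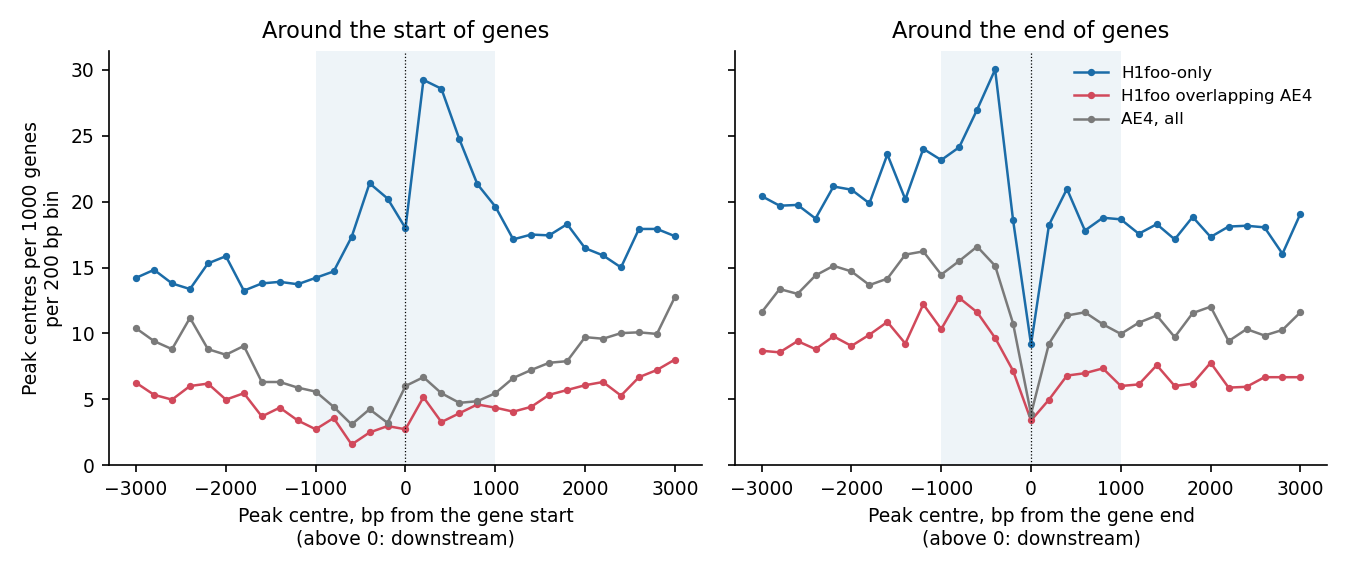
Peak centres per 1000 genes in bins of 200 bp around the starts (left) and ends (right) of 16457 genes with a listed strand. Lines show H1foo-only peaks (blue), H1foo peaks overlapping AE4 (red) and all AE4 peaks (grey), and the shaded band is the 1 kb window of the rule. H1foo-only peaks reach 29.2 just downstream of starts and 30.02 just before ends, and all lines drop in the bin over the gene end.

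Boundary peaks nearest a start lay mostly on the transcribed side in each class. Of 3066 members nearest a start, 1895 (61.8%) were centred downstream of it, and 1070 (34.9%) covered the start base. The share centred downstream was 63.8% for overlapping peaks and 58.0% for AE4 boundary peaks without H1foo. Of 2885 nearest an end, 1204 (41.7%) were centred beyond it and 750 (26.0%) covered the end base. Overlapping peaks covered the boundary more often, at 55.5% of starts and 37.4% of ends, and were also wider. Over all members, 5032 of 7485 (67.2%) were centred inside a gene span. The median gap from a member to the next AE4 peak was 3686 bp, and 5712 members (76.3%) had one within 10 kb. For members at starts the median gap was 4546 bp and for those at ends 2869 bp. H1foo-only peaks deeper inside genes had a median gap of 3977 bp.

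The CpG content of the promoter differed between starts under members and starts under overlapping peaks. A window of 300 bp, from 250 bases before the start to 50 after it, was listed for 16457 genes, 1 per gene. The start base lay under a member in 1051 of them (6.39%), under an H1foo peak overlapping AE4 in 320 and under any AE4 peak in 272. In all promoter counts, overlapping and AE4 peaks could be centred at any distance from a gene end, while members had to be centred within 1 kb. H1foo-only peaks over a start but centred farther away were left out, so the classes were not chosen alike. The median window held 11 CG dinucleotides where the start base was under a member, 5 under an overlapping peak, 4 under any AE4 peak and 14 over all promoters. An observed to expected CpG ratio of at least 0.6, a usual mark of CpG islands, was found in 38.2% of windows under members, 11.2% under overlapping peaks, 3.68% under AE4 peaks and 49.8% of all windows. The median GC content varied less, with 57.0%, 55.7%, 54.7% and 56.7% in the same order.

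Members were thus found over promoters of low to middle CpG content and became rare over the densest. The share of starts under a member was 4.06% for promoters with 0 to 4 CG dinucleotides, 12.6% for 5 to 9, 11.2% for 10 to 14, 8.80% for 15 to 19, 7.41% for 20 to 24, 4.06% for 25 to 29 and 1.2% for 30 and over. For overlapping peaks the same classes gave 2.94, 5.26, 1.99, 0.795, 0.772, 0.369 and 0.0388%. AE4 peaks lay over 3.13% of starts in the lowest class and over 0 of 2578 in the highest. The members therefore outnumbered the overlapping peaks over starts by 1.38 times in the lowest class and by 31.0 times in the highest, where the counts were 31 and 1.

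**Figure D4:**
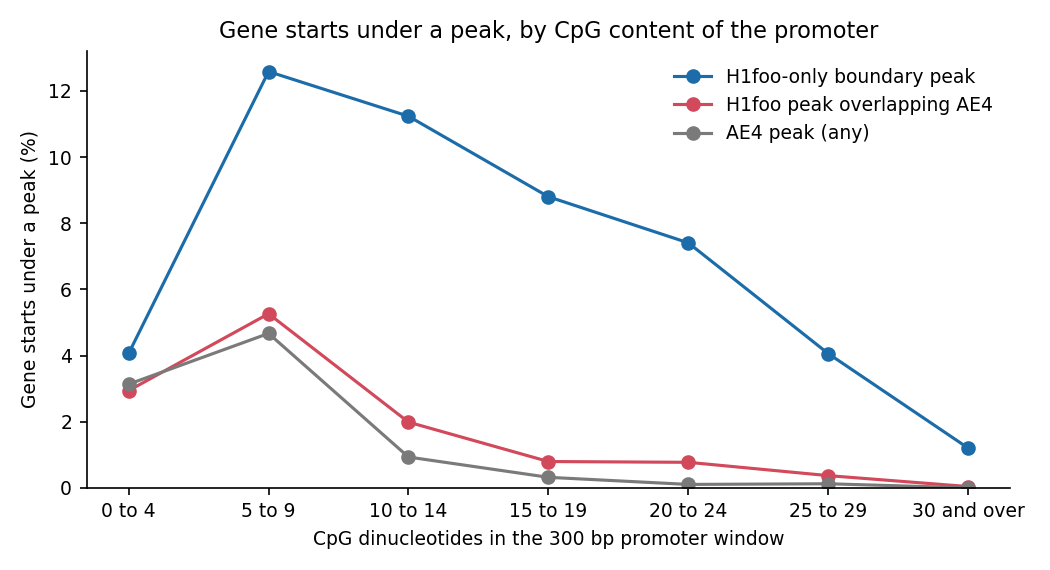
Percent of gene starts under an H1foo-only boundary peak (blue), an H1foo peak overlapping AE4 (red) or any AE4 peak (grey), by the number of CpG dinucleotides in the promoter window of 300 bp. Blue is highest at 12.6% for 5 to 9 CpG and still 7.41% for 20 to 24, where red is 0.772%. All lines are at 1.2% or less at 30 and over.

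The same order held at a fixed GC content and among high scores. The starts counted were those under a member or an overlapping peak. They made up 10.5% of promoters with under 10 CG dinucleotides, 11.3% with 10 to 19 and 4.28% with 20 and over. AE4 overlap, which the rule used, separates the 2 kinds of peak. Fewer AE4 peaks over a class of starts therefore raise the share under a member by construction. Of the starts counted, 64.8% were under a member where the promoter held under 10 CG dinucleotides (61.3 to 68.3%). The share was 88.1% at 10 to 19 and 91.6% at 20 and over (87.7 to 94.4%). Within promoters of 55 to 65% GC the shares were 62.3%, 87.0% and 92.8%, while the starts counted fell from 32.8% to 12.9% and 7.07% of promoters. With H1foo peaks of a score of at least 100 they were 46.9%, 76.9% and 79.8%. The part of base composition in amplification, alignment or peak calling was not tested.

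Starts with a member nearby, but not over the start base, had more CpG. Where a member was centred within 1 kb upstream but did not cover the start base (896 promoters), the median window held 21 CG dinucleotides, and where it was centred downstream (1056 promoters) 18. The CpG ratio was at least 0.6 in 67.9% and 63.8% of them. How much of the window such a member covered was not measured. Promoters with no peak of either antibody within 1 kb, 12041 in number, had a median of 13.

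Short motifs were searched on both strands of the 300 bp windows. GGGCGG, the GC box, was in 45.7% of windows under members (480 of 1051), 29.1% under overlapping peaks and 47.3% of all windows. CCGGAA, the core of ETS factor sites, was in 25.1%, 9.38% and 19.6%. TATAAA was in 8.56%, 11.6% and 13.5%, and CCAAT in 37.8%, 33.8% and 39.1%. TGANTCA, the AP-1 site, was in 6.18%, 10.9% and 7.12%. GGGCGG and CCGGAA hold a CG dinucleotide themselves, as do CACGTG, GCATGCGC and TGACGTCA below, so a match adds to the CpG count of its window. The part of CpG content in their shares was not tested. TCAAGGTCA, bound by the pluripotency factor Esrrb, was in 3 of 1051 windows under members (0.285%) and in 0.340% of all. The other motifs were CACGTG with 7.71% under members and 7.97% of all, GCATGCGC with 3.14% and 3.66%, AAGATGGC with 2.28% and 3.21%, and TGACGTCA with 2.57% and 2.40%. The letters of 1 motif can overlap those of another, and a match is not a bound site.

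Counted per gene, a member stood at 6285 of 20665 protein-coding genes, and this 30.4% is the background for the gene groups below. Among genes with a listed strand, 19.1% had a member within 1 kb of the start and 17.7% within 1 kb of the end. Most genes with a member had 1 (4450), 1474 had 2 and 361 had 3 or more. Both ends were marked at 1322 genes, at 1220 of them by different peaks. Of the members, 6491 (86.7%) stood at a single gene, and among the rest were 274 at the ends of 2 genes, 238 at the starts of 2 genes and 179 at an end and a start. Of the genes with a member, 66.2% had an AE4 peak somewhere over their span, and 1997 (31.8%) had none there or centred within 1 kb of either end. Genes without a member had an AE4 peak over their span less often, at 5098 of 14380 (35.5%). AE4 boundary peaks stood at 22.2% of genes with a member and at 9.67% of genes without one (13.5% of all genes). H1foo boundary peaks overlapping AE4 stood at 16.2% of genes with a member and at 9.49% of all genes.

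Members were most frequent at genes from 4390 to 25053 bp long and, counted separately, in gene-dense regions, and so were overlapping peaks. In 5 equal classes of gene length, the share of genes with a member was 23.8% up to 4389 bp, 40.04% from 4390 to 11993 bp, 36.9% and 30.1% in the next classes and 21.2% from 57924 bp up. Overlapping peaks stood at 9.32% of genes in the first class, 14.6% in the second, 11.4% in the next and 3.46% in the last. By the number of genes in the surrounding 1 Mb, it went from 12.7% in the sparsest of 5 equal classes to 44.0% in the densest. For overlapping peaks it went from 1.38% to 17.9%. Length and density were not crossed. Gene-sparse regions had relatively more members at starts, 8.81% of genes against 4.97% at ends, while in the densest class the shares were 26.6% and 28.3%. Between chromosomes the share of genes with a member went from 16.2% on 13 to 46.3% on 8, with 43.2% on 11 next to the top.

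The members with the highest scores lay mainly at gene ends. Of the 15 highest, 10 were nearest an end and 5 nearest a start. Each covered the boundary base, their widths ran from 1492 to 2743 bp, and 8 had an AE4 peak within 1 kb. The top member, at the end of Ncln, which encodes the membrane protein nicalin, was chr10:81485540-81488162 with a score of 492.4. Sirt6, a chromatin deacetylase and regulator of genome stability, had one centred 29.0 bp from its end at chr10:81620536-81622980, with a score of 463.2. Others at ends were those of Cpne5 (score 430.7), Lrch4 (382.2), Ptpa, an activator of protein phosphatase 2A (372.2), Marchf9 (360.3), Metrn (346.1), Padi6 (341.5), Qrich2 (334.9) and the cullin gene Cul7 (331.9). Scgb1c1 joined Mlxipl, Nudt8, Gm40011 and Tekt2 among those at starts, with 381.4. The widest members were those of Ptpa with 2743 bp, the neighbours Ncaph2, Sco2 and Tymp with 2667 bp, Ncln with 2623 bp, Exoc3l and 4931428F04Rik with 2507 bp, and Cilp2 with 2479 bp.

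A few genes had several members each. Tex22 on chromosome 12 had 5, and Tmie, Gfus, Mrpl12, Pacs2, Iqce and Mmp23 had 4 each. Mrpl12, a subunit of the mitochondrial ribosome, had 2 members at its start and 2 at its end, with scores of 63.3, 70.3, 207.1 and 93.5, and no AE4 peak over its 4118 bp. Mmp23 was likewise without an AE4 peak over its span. Tex22 and Pacs2 are neighbours, and the members with scores of 165.3, 134.3 and 78.9 are counted for both.

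**Figure D5:**
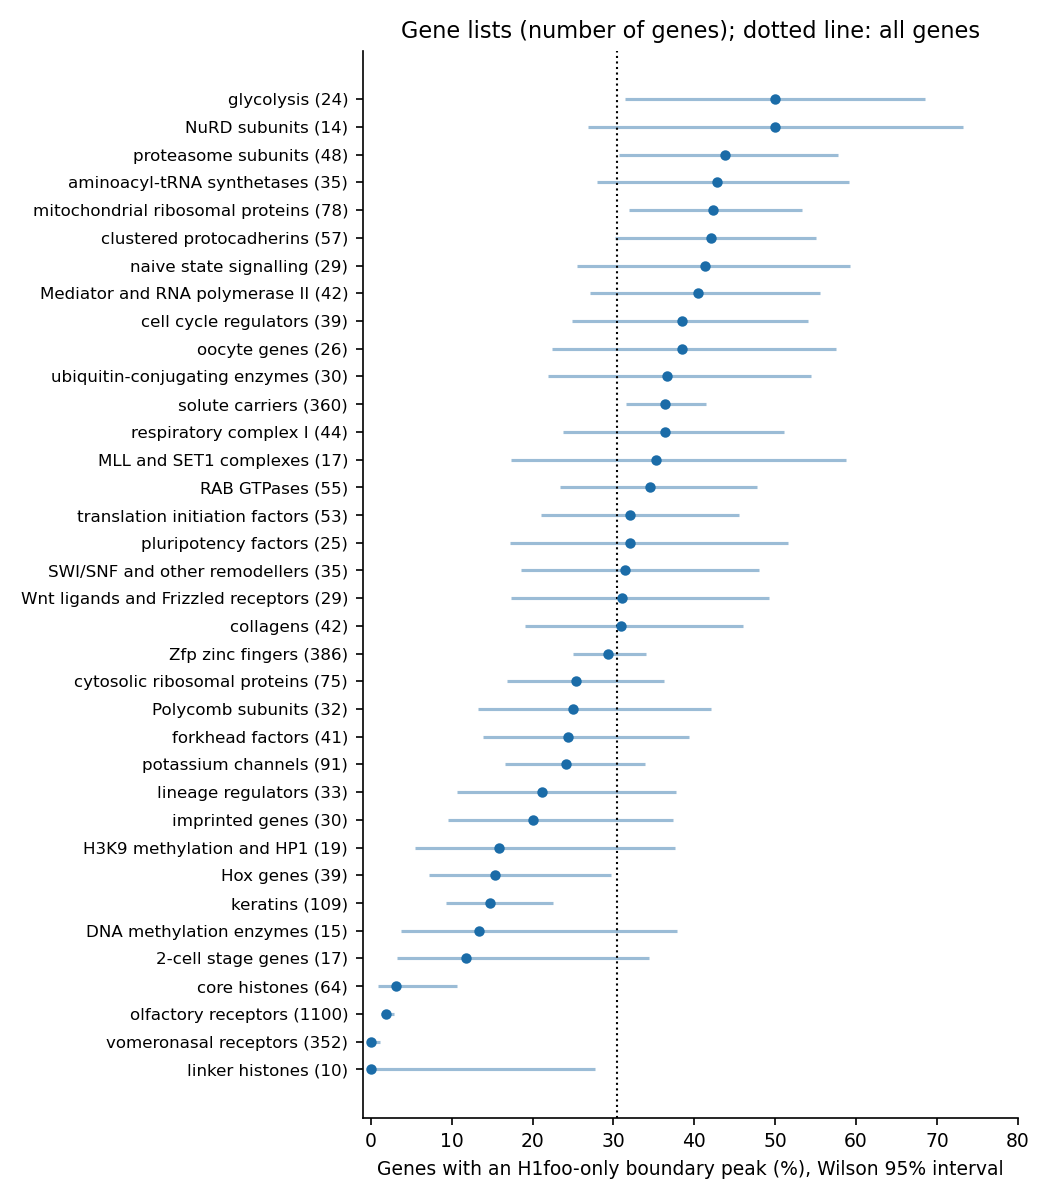
Percent of genes in each of 36 gene lists with an H1foo-only boundary peak, with Wilson 95% intervals that cover counting error only, and the number of genes in brackets. The dotted line is the 30.4% of all protein-coding genes on chromosomes 1 to 19. Glycolysis and NuRD subunits are at 50%, and the receptor families, core histones and linker histones lie under 4%.

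The gene lists are described by their counts beside that background, without a test. Of 36 lists, 20 were above 30.4% and 16 below. The median of the highest member score per gene was 79.0 over all genes with a member.

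Among housekeeping groups, glycolysis, the proteasome, mitochondrial ribosomal proteins and aminoacyl-tRNA synthetases were above the background and cytosolic ribosomal proteins below it. Several were also above the background of the peaks with AE4. H1foo peaks overlapping AE4 stood at 20.8% of glycolysis, 22.9% of synthetase, 16.7% of proteasome and 12.8% of mitochondrial ribosomal genes, against 9.49% of all genes. AE4 boundary peaks stood at 25% of glycolysis, 17.1% of synthetase, 18.8% of proteasome and 12.8% of mitochondrial ribosomal genes, against 13.5% of all genes. Glycolysis had a member at 12 of 24 genes (50%), with a median highest score of 106.0. Pklr, a pyruvate kinase, had a peak of score 271.2 beyond its end and one of 56.7 at its start. Pgam2, a phosphoglycerate mutase, had 189.0 at its end and 78.9 at its start, and Pfkl, a phosphofructokinase, had 166.9 and 73.5 at its end. Gpi1, the isomerase of the pathway, had 145.6 downstream of its start. Glycolytic genes carried members at starts in 8 of 21 genes with a listed strand (38.1%, background 19.1%) and at ends in 5 (23.8%, background 17.7%).

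Proteasome subunits had a member at 21 of 48 genes (43.8%), among them Psmb10 (score 254.0), Psmd3 (191.0), Psmd2 (176.7) and Psme2 (151.2). Mitochondrial ribosomal proteins had 33 of 78 (42.3%), with Mrps2 (259.3), Mrpl10 (231.2), Mrpl34 (207.3) and Mrpl12 (207.1) highest. Aminoacyl-tRNA synthetases had 15 of 35 (42.9%), of which Sars had scores of 174.7 and 167.5 at its end. Cytosolic ribosomal proteins were below the background with 19 of 75 (25.3%) and a median score of 62.4. Their highest was Rpl10a, with 151.6 centred 698.5 bp upstream of its start, followed by Rpl26 (120.1), Rpl36 (119.4) and Rpl18 (108.8). Several of these genes have processed copies elsewhere in the genome, where read placement is uncertain.

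The general transcription machinery, Mediator and RNA polymerase II, had a member at 17 of 42 genes (40.5%). Med16 had a peak of 239.7 centred 907 bp upstream of its start, nearer to the end of its neighbour R3hdm4. Polr2f had 184.4 at its end and 103.2 over its start. At starts the list had 11 of 35 genes (31.4%) and at ends 6 of 35 (17.1%). Cell cycle regulators had 15 of 39 (38.5%). Cdk4, the kinase partner of D cyclins, had 245.9 downstream of its start and 122.7 before its end, Ccnd3 had 177.7 over its start and 152.5 at its end, and Trp53 had 111.3 and 110.2 on either side of its end. E2f4 had a peak of 160.1. AE4 boundary peaks stood at 21.4% of Mediator and polymerase genes and at 15.4% of cell cycle genes, against 13.5% of all genes.

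Pluripotency factors had a member at 8 of 25 genes (32.0%), close to the background. Pou5f1, which encodes Oct4, had peaks of 80.02 centred 504 bp downstream of its start and of 69.8 and 59.4 before its end, with no AE4 peak over its span. Fgf4 had 172.6, Tfcp2l1 had 122.5 centred 182.5 bp downstream of its start and 56.7 beyond its end, and Gdf3 had 101.7. Genes of the signalling that maintains the naive state had 12 of 29 (41.4%). Map2k1, the kinase MEK1, had 185.3 near its end and 57.8 at its start, the inhibitors of differentiation Id1 and Id3 had 130.7 and 118.3, and Il6st, the receptor subunit gp130, had 106.9.

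Oocyte genes had a member at 10 of 26 (38.5%) with a median highest score of 97.6. Padi6, of the oocyte cytoplasmic lattices, had 341.5 beyond its end and 92.0 over its start, Zar1l had 148.1, Ooep 122.5 and Npm2, a histone chaperone, 118.0. Among linker histone genes, H1f8 included, 0 of 10 had a member, which allows a share of up to 27.8% (Wilson upper limit). An H1foo boundary peak overlapping AE4 stood at 1 of these 10 genes, and an AE4 boundary peak at 1 of 10. Genes of the 2-cell stage had 2 of 17, Tdpoz4 and Tmem92, with 73.2 and 58.7.

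Chromatin regulator lists had shares on both sides of the background, and each of their Wilson intervals included it. These ran from 26.8 to 73.2% for NuRD and from 3.74 to 37.9% for enzymes of DNA methylation. NuRD, a remodelling and deacetylase complex, had a member at 7 of 14 genes (50%), with Chd4 at 151.1, Chd5 at 149.1, Gatad2a at 83.6 and Hdac1 at 76.4. MLL and SET1 methylase complexes had 6 of 17 (35.3%), with Pagr1a at 199.6 and Kmt2b at 129.6. SWI/SNF and other remodellers had 11 of 35 (31.4%), with Smarcd1 at 212.2 and Actb at 146.9 highest. Polycomb subunits had 8 of 32 (25%), with Pcgf2 at 162.0 and Cbx7 at 129.4. H3K9 methylation and HP1 genes had 3 of 19 (15.8%), which were Setdb1 (157.8), Ehmt2 (113.4) and Tasor (50.9). Enzymes of DNA methylation had 2 of 15, Mbd4 (65.3) and the maintenance methylase Dnmt1 (56.5). AE4 boundary peaks stood at 21.4% of NuRD and 20% of DNA methylation genes, against 13.5% of all genes, and at lower shares than that in the other lists here. H1foo boundary peaks overlapping AE4 stood at 20% of DNA methylation genes, more than members did. These lists hold between 14 and 35 genes, so a share moves by several points with a single gene.

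Developmental gene groups are small, and their counts at starts and ends rest on few genes with a listed strand. Over all such genes the shares were 19.1% at starts and 17.7% at ends. Lineage regulators had a member at 7 of 33 genes (21.2%), at 0 of 20 starts and 3 of 20 ends. Their highest scores were 140.0 at Tfap2c, of trophoblast and germ cells, and 138.1 at Mesp1, of cardiac mesoderm. Hox genes had 6 of 39 (15.4%), at 5 of 22 starts (22.7%) and 0 of 22 ends, with a median score of 56.7, and the highest were Hoxb9 (76.4), Hoxb8 (58.2), Hoxa7 (56.9) and Hoxd13 (56.5). Of the 39, 0 had an AE4 peak centred within 1 kb of either end, against 13.5% of all genes. Clustered protocadherins had 24 of 57 (42.1%), with no strand listed, through 15 peaks, since neighbouring genes share boundaries. Pcdhgb4 had the highest score among them, 175.9, and 0 of 57 had an AE4 boundary peak, against 13.5% of all genes. Because boundaries are shared, the 57 genes are not 57 separate places. Imprinted genes had 6 of 30 (20%), among them Slc22a18 (153.7), Nnat (93.6) and Phlda2 (88.7).

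Other families spread on both sides of the background. Solute carriers had 131 of 360 (36.4%), with Slc29a1 at 317.3 and Slc5a11 at 303.7. Respiratory complex I had 16 of 44 (36.4%), with its assembly factor Ndufaf3 at 253.2. Potassium channels had 22 of 91 (24.2%), with Kcnn3 at 291.3, forkhead factors 10 of 41 (24.4%), with Foxh1 at 214.1, and collagens 13 of 42 (31.0%), with Col9a2 at 189.5. Zfp genes had 113 of 386 (29.3%), with Zfp358 at 302.0, and were marked at starts in 21.3% and at ends in 13.0%. Wnt ligands and Frizzled receptors had 9 of 29 (31.0%), RAB GTPases 19 of 55 (34.5%), translation initiation factors 17 of 53 (32.1%) and ubiquitin-conjugating enzymes 11 of 30 (36.7%). AE4 boundary peaks stood at 22.7% of complex I, 18.1% of solute carrier and 14.3% of collagen genes, against 13.5% of all genes. Their shares in the other families named here were below 13.5%.

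Other clustered families, unlike the protocadherins, were below the background. Olfactory receptors had a member at 21 of 1100 genes (1.91%) and vomeronasal receptors at 0 of 352, which allows a share of up to 1.08% (Wilson upper limit). Keratin and keratin-associated genes had 16 of 109 (14.7%). Core histone genes had 2 of 64 (3.12%), H2ac20 and H2bc21, which share a single peak with a score of 73.4. Such families lie in clusters and hold near-identical copies, where read placement is uncertain. The same families were also low in AE4 boundary peaks, at 16 of 1100 olfactory, 0 of 352 vomeronasal and 1 of 64 core histone genes, against 13.5% of all genes.

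Of 919 miRNA hairpins on these chromosomes, 23 overlapped a member and 194 any H1foo peak. Members made up 7.67% of H1foo peaks, which is a share of peaks and not of hairpins. No share for other regions was computed, so these counts cannot be called many or few.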

How the data were processed

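The members, gene lists and motifs were chosen with earlier results of these data known. Per the submitters' processing notes, alignment to mm10 used Bowtie 1.1.2. Per the file headers, the peak caller was MACS, without a version. The authors deposited 1 list per antibody with a score per peak, the caller's own value on a scale the files do not name. The sources used here do not say how replicate libraries entered a list or if an input served as control. Comparisons used chromosomes 1 to 19, starts counted from 1, and overlap of at least 1 bp.

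Gene spans of 20665 protein-coding genes came from a RefSeq table on GRCm38.p6. Strand and promoter sequence came from a RefSeq promoter table that listed 16457 of them. Starts and ends of genes are the ends of the span. For promoter windows and sequences, the listed start nearest the span's end was used, identical to it for 9841 genes. For the split of peaks between starts and ends, a peak was assigned to its nearest gene end. For counts per gene and gene lists, it was counted at every gene with an end within 1 kb of its centre. Genes without a listed strand were kept, but not counted at starts or ends. Scripts used Python 3.11.15, pandas 2.3.3 and scipy 1.17.1, and overlap, distance and strand assignment were tested on simulated data.

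Genes were named by rule: those of the 15 highest-scoring and 5 widest members, the 8 with most members, up to 4 per list by score, those at the 1 kb limit, and the 5 highest-scoring members over a start for sequences. A gene that this rule names is not reported here. The sequences of Fgf4, Ccnd3 and Ooep were chosen outside this rule. Comparison sequences, bands of width and score, and CpG classes were added once values were known. Tests were not possible, because the lists hold no value per library. Alternatives changed the window, the overlap rule, the score minimum, the placement of peaks and chromosome 8.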

Additional observations from a re-analysis of the deposited data

How the results depend on the processing

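The 7 planned results were recomputed under 8 alternatives. Of the 56 values, 21 stayed within the interval or within 1.5 times the reported value, and the rest follow. With a window of 500 bp there were 4023 members at 3881 genes, 54.8% at starts, 65.7% centred inside a gene, median width 565 bp, median score 72.1 and 81.1% of H1foo boundary peaks without AE4 overlap. With 2 kb there were 12804 members, 48.7% at starts, and 76.4% without overlap. Where no AE4 peak was allowed within 1 kb, 54.6% were at starts, with 569 bp, a score of 72.1 and 63.8% without. Where AE4 could cover less than 50% of the peak, the values were 50.2%, 594 bp, 75.8 and 85.4%. H1foo scores of at least 100 left 1888 members at 1988 genes, 47.8% at starts, 72.8% inside a gene, 912 bp, a score of 130.2 and 61.4% without overlap. AE4 scores of at least 100 gave 48.4%, 596 bp, 76.7 and 94.4%. Any part of the peak within 1 kb gave 50.03%, 594 bp, 75.6 and 75.7%. Without chromosome 8 the width was 571 bp and the share without overlap 80.5%. Changing the window, the score minimum or the overlap rule changes the set of peaks by construction.

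The share without AE4 overlap was 13.9 points higher at starts than at ends (12.1 to 15.7). It stayed higher in 8 of 8 alternatives, from 4.70 points with AE4 scores of at least 100 to 19.3 points with no AE4 peak within 1 kb. This comparison was chosen after seeing the data and depends by construction on where AE4 peaks lie. No paired analysis was possible because the lists hold no value per library, and leaving out a replicate was not possible for the same reason. Unknown depth limits every statement about missing AE4 peaks.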
